A study of Mus musculus with 6 samples.

Results

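Potassium channel genes were followed in heart cells of mouse embryos that expressed a mutant or a wild-type histone H3.3. The family was taken as every row of the deposited gene count table whose symbol has the form of a potassium channel gene (Kcn, further letters and a closing number) and whose counts summed over 6 libraries to at least 60. This gave 48 members among 49 such symbols and 15159 genes in the table. Kcns3, with a sum of 52 counts, lay just outside that limit, and Kcnh7 (71 counts), Kcna3 (76) and Kcnma1 (89) lay just inside it. All 48 members had enough counts to be tested. GENCODE M21 lists 92 protein-coding symbols of this form, of which 49 have a row in the count table. The other 43 have no row there and could not be analysed.

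The cells came from hearts of C57BL/6 x 129S4/SvJae embryos at day 18.5 and grew for 4 days on a soft silicone rubber (PDMS) of 13 kPa. One group of 3 libraries came from cells with an inducible H3.3 in which lysine 9 is replaced by methionine (H3K9M), a change known to lower methylation at this site of silenced chromatin. The other group of 3 libraries came from cells with inducible wild-type H3.3 (H3WT). Both groups thus carried an H3.3 transgene and received 2 µg/ml doxycycline on days 0, 1 and 2. No source used here gives the promoter behind the transgene or says that libraries came from separate animals. The p-values thus measure spread between libraries only, and the technical part of that spread was not measured. Libraries of the same group also differed in sex-linked RNA (Xist and Y-linked levels, given below). Polyadenylated RNA was sequenced, and neither current nor channel protein was measured.

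Potassium channels let potassium ions leave the cell along their gradient and so end the cardiac action potential and hold the resting potential. Voltage-gated channels open on depolarization and carry the transient outward and delayed rectifier currents of repolarization, inward rectifiers set the resting potential and respond to ATP or to G proteins, and two-pore channels give a background leak. Pore subunits assemble in groups with auxiliary subunits that change their gating or number at the membrane, so that a channel can draw on several genes. Mouse cardiomyocytes change the channels they use around birth, and the other cells of the heart have channels of their own.

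The libraries held between 55550379 and 67994773 counts, so that 1 CPM (the reads of a gene scaled to a common library size with TMM factors) stood for 55.5 to 68.1 reads. The summed level of 10 cardiomyocyte markers was 30677, 27645 and 31359 CPM in H3K9M libraries and 27218, 25864 and 31934 CPM in H3WT libraries, in keeping with the labelled tissue. Markers of fibroblasts (11553 to 18358 CPM in H3K9M, 12870 to 19489 CPM in H3WT), smooth muscle and pericytes (5926 to 6341 and 6055 to 7944 CPM), endothelium (444 to 521 and 494 to 600 CPM) and macrophages (193 to 248 and 130 to 470 CPM) were present in every library. No gene of any marker list passed the adjusted threshold in edgeR or limma-voom, and DESeq2 called Pln (a cardiomyocyte marker) and S100b (a Schwann cell marker) higher and Egfl7 and Tek (endothelium), Cx3cr1 (macrophage) and Lrrn4 (epicardium) lower. Among the endothelial markers 8 of 10 were negative (median -0.60 on the log2 scale) and 5 of 10 had an unadjusted p under 0.05 on the lower side, while 7 of 9 fibroblast markers (median -0.58) and 8 of 8 macrophage markers (median -0.37) were negative. The part of these cells in the values of the channel genes was not tested. Xist was at 136, 265 and 148 CPM in H3K9M libraries and 71.3, 376 and 353 CPM in H3WT libraries, and the summed Y-linked level at 99.98, 63.3 and 127.8 CPM in H3K9M libraries and 164.9, 65.0 and 62.2 CPM in H3WT libraries, so that H3WT replicate 1 stood apart from the other H3WT libraries in both. Every library held both Xist and Y-linked RNA, in proportions that differed between libraries of the same group. In RNA of mixed cells, fewer cells of a type and less RNA per cell cannot be told apart.

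One potassium channel gene changed past the threshold. Kcnab1, which encodes a beta subunit of voltage-gated channels, rose in H3K9M cells (1.54-fold, log2 fold change 0.62 ± 0.10 (SE), edgeR adjusted p = 0.0236). By this rule (adjusted p under 0.05) 1 of 48 members was higher, against 0.935% of all 14758 tested genes. No member fell by the same rule (0 of 48, against 1.05% of all genes). At an unadjusted p under 0.05, 5 members were higher and 9 lower, 10.4% and 18.8% of the family, against 7.78% and 8.61% of all genes. DESeq2, another count test, called 4 members higher (Kcnab1, Kcnj15, Kcnk3 and Kcnmb1) and 4 lower (Kcna5, Kcnd1, Kcnk6 and Kcnn1) of the 44 to which it gave an adjusted p, against 3.35% higher and 3.84% lower over all genes, whereas limma-voom called Kcnab1 alone. Kcnk6 (edgeR adjusted p = 0.0502) and Kcnk3 (0.0507) lay next to the threshold of the main test.

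The balance of directions over the whole family leaned toward H3WT. The fitted fold change was positive for 19 members and negative for 29 (60.4%, against 50.5% of all tested genes), and its median was -0.14 on the log2 scale, against -0.0024 over all genes. Among the 17 members at 5 CPM or more, 9 were negative (52.9%, against 48.2% of all genes of that level) and the median was -0.10, against 0.008. Among the 31 members under 5 CPM, 20 were negative (64.5%, against 56.7% of all genes of that level) and the median was -0.47, against -0.095. The plot of change against level shows the members among all genes of their level.

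**Figure D1:**
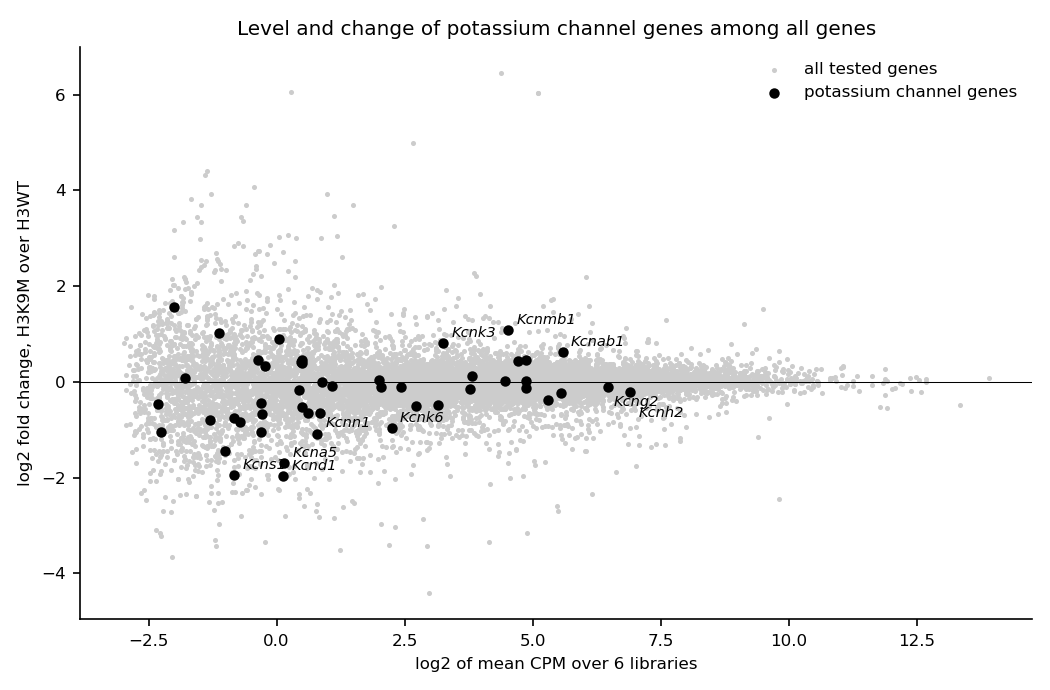
Log2 fold change, H3K9M over H3WT (edgeR), against the log2 of the mean CPM over 6 libraries, for all tested genes (grey) and the 48 potassium channel genes (black). Kcnab1 and Kcnmb1 lie above the bulk of genes of their level, Kcnk6 lies below it, and the scatter widens toward low levels for members and all genes alike.

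**Figure D2:**
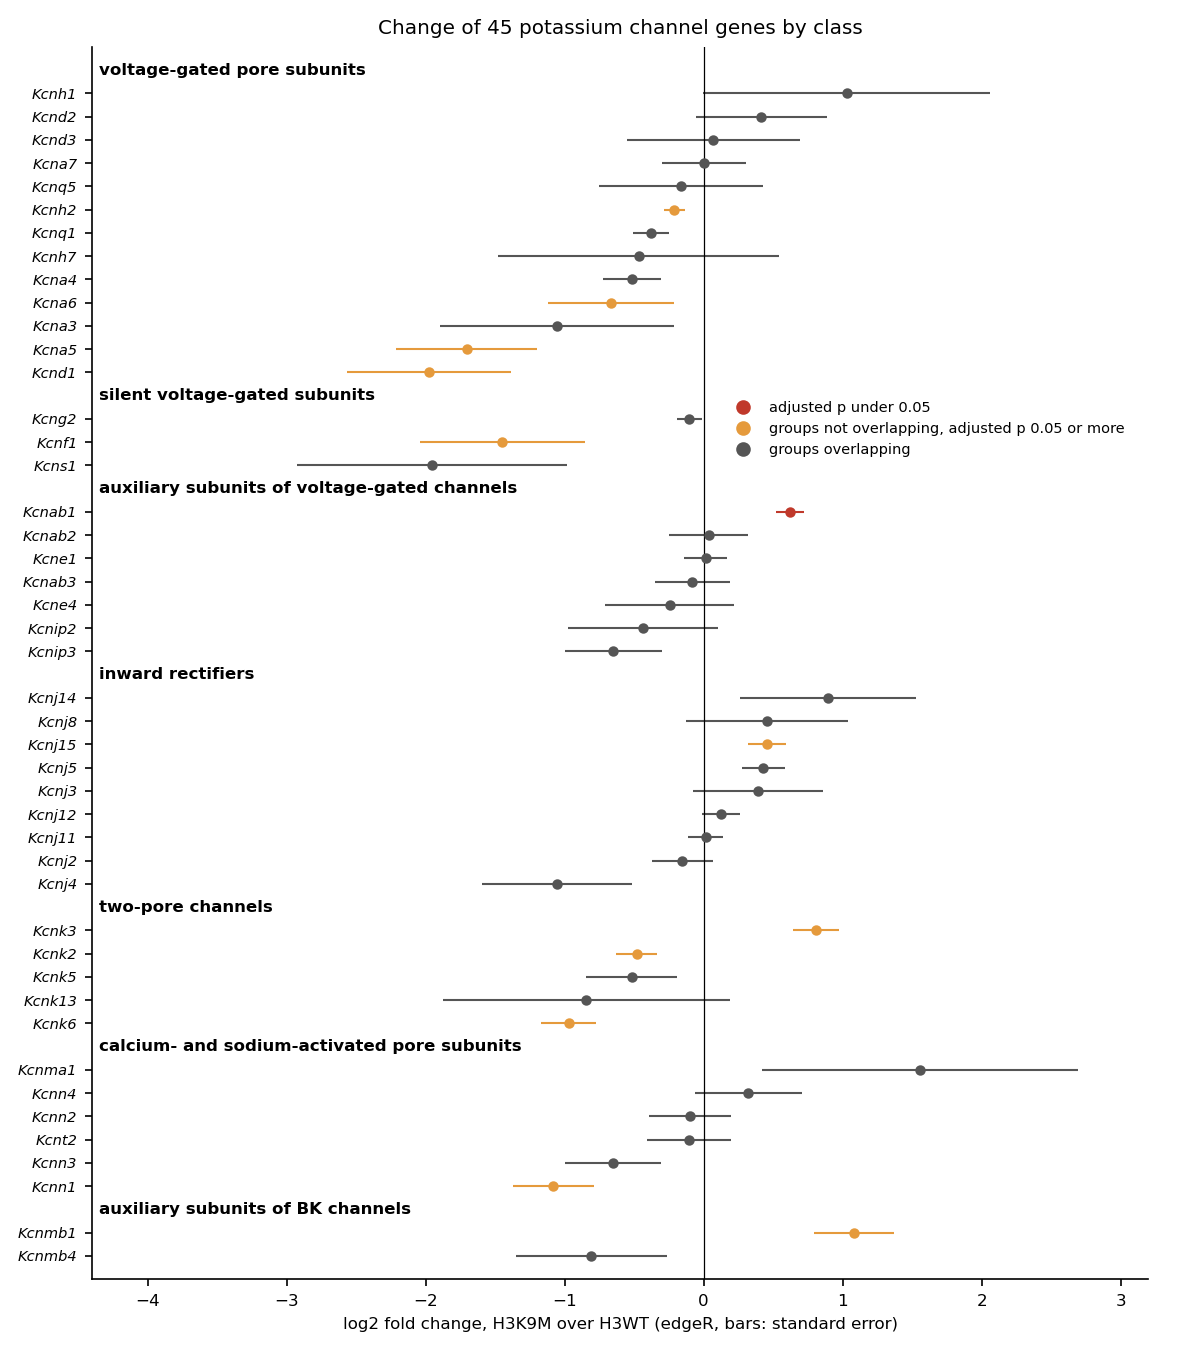
Log2 fold change of 45 potassium channel genes by class (points, with the edgeR standard error as bars). Kcnab1 (red) passed the adjusted threshold, and the 11 genes in orange had groups that did not overlap without passing it.

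Complete separation of the groups was seen for 12 members. All H3K9M libraries exceeded all H3WT libraries for 4 members (Kcnab1, Kcnk3, Kcnmb1 and Kcnj15, 8.33% of the family), against 11.3% of all genes. The reverse held for 8 members (Kcnk6, Kcnn1, Kcna5, Kcnd1, Kcnk2, Kcnh2, Kcnf1 and Kcna6, 16.7%), against 11.3% of all genes as well. The 4 members higher in H3K9M were all at 5 CPM or more, and 6 of the 8 lower ones were under 5 CPM. At 5 CPM or more, 23.5% of members were higher and 11.8% lower, against 12.1% and 10.9% of all genes of that level. Under 5 CPM, 0% were higher and 19.4% lower, against 9.08% and 12.3% of all genes, which at that level also leaned lower.

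**Figure D3:**
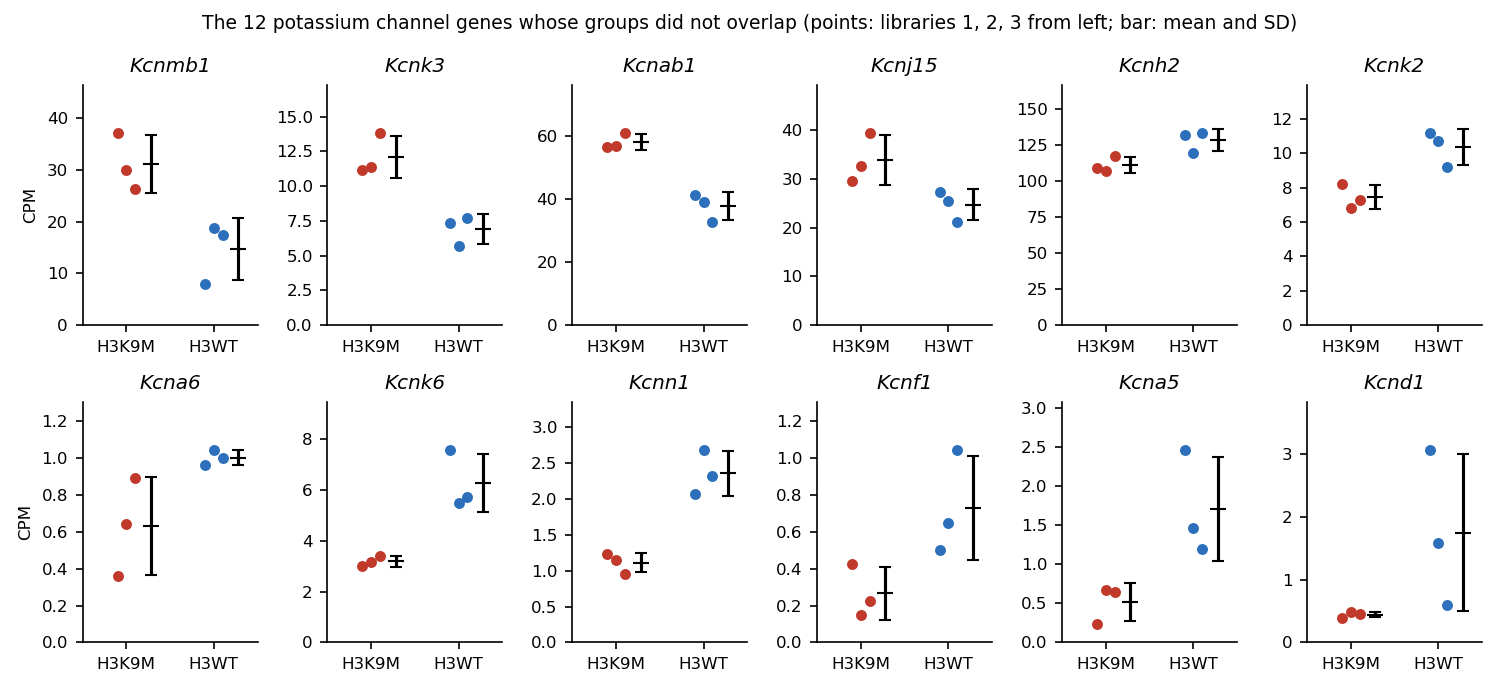
CPM in each library (points, libraries 1 to 3 from the left) with mean and SD (bar) for the 12 potassium channel genes whose H3K9M and H3WT libraries did not overlap. The groups of Kcnab1, Kcnk3 and Kcnk6 stand clearly apart, while Kcnd1 and Kcnmb1 show a wide spread within H3WT.

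A few genes made up most of the family's transcripts. Levels between genes were compared as CPM per kb of exon, and the summed level over the family was divided among its members. The 3 most abundant genes, Kcng2, Kcnh2 and Kcne4, held 49.9% of that sum, and the 11 most abundant held 85.4%. Kcng2 had a median of 29.2 CPM per kb over the 6 libraries, Kcnh2 24.4, Kcne4 17.2, Kcnq1 9.79 and Kcne1 9.10. These first 5 overlapped with their neighbours in the order but not with Kcnj11, the next in rank, whose highest library (6.59 CPM per kb) was below the lowest of Kcne1 (7.41). A group of 6 genes of similar level followed, namely Kcnj11, Kcnj5, Kcnab1, Kcnmb1, Kcnj12 and Kcnj15, with medians between 4.51 and 6.16 CPM per kb. Below these, Kcnj2 (median 2.57 CPM per kb), Kcnk3 (2.37), Kcnk2 (1.76) and Kcna4 (1.31) came in that order, each overlapping with the next.

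**Figure D4:**
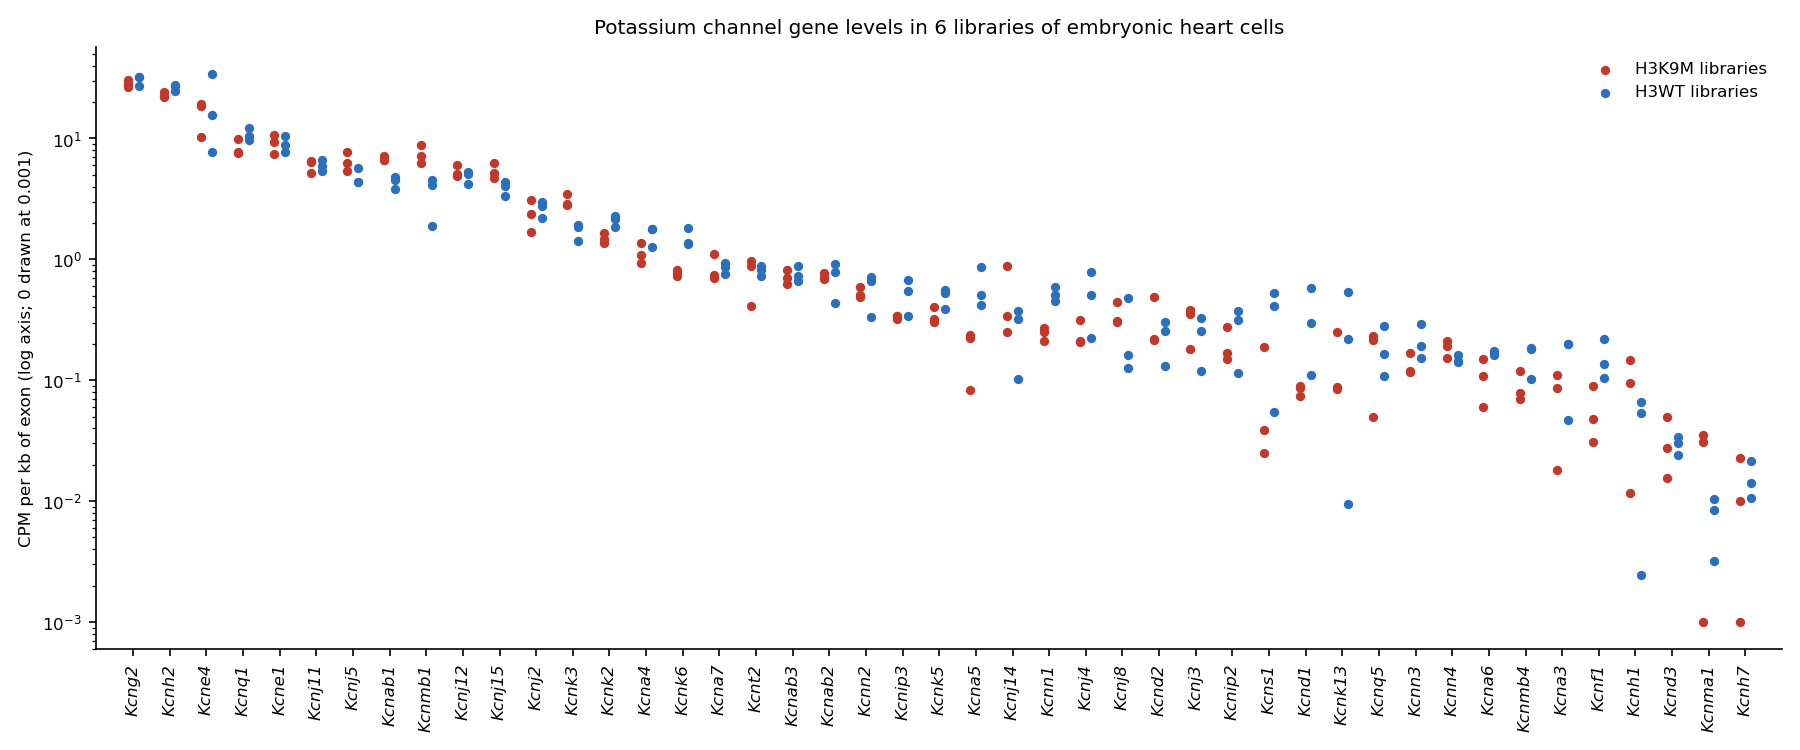
CPM per kb of exon for 45 potassium channel genes in H3K9M (red) and H3WT (blue) libraries, ordered by mean level on a log axis, with a value of 0 drawn at 0.001. The genes from Kcng2 to Kcnj15 hold most of the summed level, and the libraries of both groups overlap for most genes.

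The auxiliary subunits of voltage-gated channels comprised 7 members, of which 3 were positive and 4 negative (median -0.082). Kcnab1 (chr3:65109384-65378223, plus strand, GRCm38) encodes a beta subunit that binds Kv1 pore proteins inside the cell and speeds their inactivation. It was at 56.6, 57.0 and 61.2 CPM in H3K9M libraries, against 41.2, 39.3 and 32.8 CPM in H3WT libraries. All H3K9M libraries lay above all H3WT libraries, and the spread within each group was small beside the gap. The related genes Kcnab2 (4.05 ± 0.23 CPM in H3K9M and 3.96 ± 1.40 CPM in H3WT, SD, n = 3 each) and Kcnab3 (2.04 ± 0.29 and 2.16 ± 0.33 CPM) overlapped between the groups. These 2 genes are given with values outside the naming rule, after their values were seen. Of the summed CPM per kb of the 3 beta subunit genes, Kcnab1 made up 82.5 ± 0.73% in H3K9M and 75.0 ± 0.89% in H3WT. The call on Kcnab1 was lost without H3WT replicate 2 (edgeR adjusted p = 0.109) and without H3K9M replicate 1 (0.0628), 2 (0.0877) or 3 (0.0907), and held without H3WT replicate 1 (0.0223) or 3 (0.0264). Of its exon length, 2.34% overlaps the antisense gene A330015K06Rik, and the strand setting of the counting is not stated.

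RefSeq places 3 transcript starts in Kcnab1, and the 300 bases from 250 before to 50 after each start are shown because this is the gene that passed the test. The windows lie at chr3:64948962-64949261, chr3:65108764-65109063 and chr3:65187853-65188152 (GRCm38.p6, plus strand, 5′ to 3′). CG dinucleotides, the sites of DNA methylation, are in capitals.
Kcnab1 start 1: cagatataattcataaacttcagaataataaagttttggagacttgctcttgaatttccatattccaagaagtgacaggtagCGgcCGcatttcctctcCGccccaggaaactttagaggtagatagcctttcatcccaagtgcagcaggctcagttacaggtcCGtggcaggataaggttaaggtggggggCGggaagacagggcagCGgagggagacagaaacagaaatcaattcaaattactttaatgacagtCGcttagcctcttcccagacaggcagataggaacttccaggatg
Kcnab1 start 2: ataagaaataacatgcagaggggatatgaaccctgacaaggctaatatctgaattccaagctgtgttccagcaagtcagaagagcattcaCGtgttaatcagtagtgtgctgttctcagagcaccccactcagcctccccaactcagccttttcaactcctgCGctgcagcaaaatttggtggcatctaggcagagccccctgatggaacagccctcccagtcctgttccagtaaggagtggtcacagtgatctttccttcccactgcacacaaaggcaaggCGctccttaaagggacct
Kcnab1 start 3: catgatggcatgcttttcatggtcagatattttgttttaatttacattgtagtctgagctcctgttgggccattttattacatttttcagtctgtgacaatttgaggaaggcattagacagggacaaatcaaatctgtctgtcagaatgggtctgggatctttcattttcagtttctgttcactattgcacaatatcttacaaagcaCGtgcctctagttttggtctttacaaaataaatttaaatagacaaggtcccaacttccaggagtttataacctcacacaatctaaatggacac
The first window, upstream of the gene's span in GENCODE, has 7 CG, the second, just before that span, has 3, and the third, inside the gene, has 1. Gene counts do not tell which start was used.

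Windows of this kind were available for 35 of the 48 members, 46 windows in all, from the RefSeq table of GRCm38.p6. Their median was 10.5 CG, against 7 CG over 32851 windows of all genes. Set against the number expected from the C and G content of each window, the members did not have more CG. The ratio of observed to expected CG was over 0.6 in 15 of the 46 windows (32.6%), against 35.8% of all windows. The window of Kcnmb1 (chr11:33962763-33963062, plus strand) and the window of Kcnh2 (chr5:24329542-24329841, minus strand, at a start inside the gene's span) are set side by side as windows with few and with many CG, again in capitals.
Kcnmb1: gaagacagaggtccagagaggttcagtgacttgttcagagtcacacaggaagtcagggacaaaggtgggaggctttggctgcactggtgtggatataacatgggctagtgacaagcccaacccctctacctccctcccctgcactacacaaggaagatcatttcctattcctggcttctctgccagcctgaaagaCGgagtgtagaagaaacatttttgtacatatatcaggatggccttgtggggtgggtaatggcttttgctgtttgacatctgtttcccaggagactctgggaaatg
Kcnh2: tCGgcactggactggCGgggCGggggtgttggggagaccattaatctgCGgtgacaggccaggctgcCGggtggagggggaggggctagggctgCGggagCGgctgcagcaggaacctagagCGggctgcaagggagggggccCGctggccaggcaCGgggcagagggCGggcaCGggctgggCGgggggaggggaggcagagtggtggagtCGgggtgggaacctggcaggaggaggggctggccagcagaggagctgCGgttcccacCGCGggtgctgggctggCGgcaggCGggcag
The window of Kcnmb1 has 1 CG and that of Kcnh2 has 19. Windows with at least as many CG made up 94.6% of all windows for Kcnmb1 and 28.1% for Kcnh2. By direction, the windows of genes higher in every H3K9M library had 1 to 7 CG (Kcnab1, Kcnj15 and Kcnmb1), while Kcnk3 had no window. Those of genes lower in every H3K9M library had 3 to 33 CG, with 3 for Kcnf1, 4 for Kcna5 and 8 for Kcna6, so that the ranges overlapped. Kcnk6 and Kcnd1 had no window, and the value of 33 came from Kcnk2 alone, which also had windows with 3 and 6 CG. On both strands, the GC box GGGCGG was found in 47.8% of the members' windows, against 35.7% of all windows, and the E-box CANNTG in 69.6%, against 72.3%. The letters TATAAA were found in 4.35% of the members' windows, against 13.6% of all windows, and the CArG box in 0 of 46, against 1.63% of all windows. The GC box adds a CG of its own to the count of CG. A match of letters is a description and does not show a bound site.

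Kcne1 and Kcne4 encode small single-span subunits that change the gating of voltage-gated channels. Kcne1, whose product slows the channel formed by Kcnq1, was at 23.8, 34.0 and 30.1 CPM in H3K9M libraries, against 33.8, 28.4 and 24.9 CPM in H3WT libraries. The groups overlapped fully (log2 fold change 0.01 ± 0.16, edgeR adjusted p = 0.977). Kcne4, whose product inhibits Kcnq1 and Kv1 channels, was at 27.3, 51.6 and 49.6 CPM in H3K9M libraries, against 90.1, 41.6 and 20.4 CPM in H3WT libraries. H3WT held both its highest and its lowest library, so that the fold change of -0.24 ± 0.46 (log2, edgeR adjusted p = 0.848) had the widest error among the 11 most abundant members. Kcnip2, which encodes a partner of the transient outward channels, was at 0.581, 0.954 and 0.524 CPM in H3K9M libraries, against 1.30, 0.396 and 1.09 CPM in H3WT libraries (adjusted p = 0.754). Kcnip3, of the same family of calcium-binding partners, was at 1.21, 1.20 and 1.13 CPM in H3K9M libraries, against 2.41, 1.21 and 1.95 CPM in H3WT libraries (adjusted p = 0.407), and the groups overlapped for both genes.

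The order of the libraries for Kcne4 resembled those of macrophage and of fibroblast markers. The sum of 8 such markers was 193, 248 and 248 CPM in H3K9M libraries, against 470, 251 and 130 CPM in H3WT libraries, so H3WT replicate 1 was highest and H3WT replicate 3 lowest for the markers and for Kcne4. The sum of 9 fibroblast markers was 11553, 15811 and 18358 CPM in H3K9M libraries, against 19489, 17172 and 12870 CPM in H3WT libraries. It was likewise highest in H3WT replicate 1 and had the order of Kcne4 within H3WT, but it was lowest in H3K9M replicate 1. Kcnk13, a two-pore channel gene known from microglia and chosen here after its values were seen, was at 0.273, 0.773 and 0.262 CPM in H3K9M libraries, against 1.66, 0.685 and 0.029 CPM in H3WT libraries, in the same order within H3WT. Within H3K9M its order was not that of either marker sum. The part of these cells in the levels of Kcne4 and Kcnk13 was not tested.

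**Figure D5:**
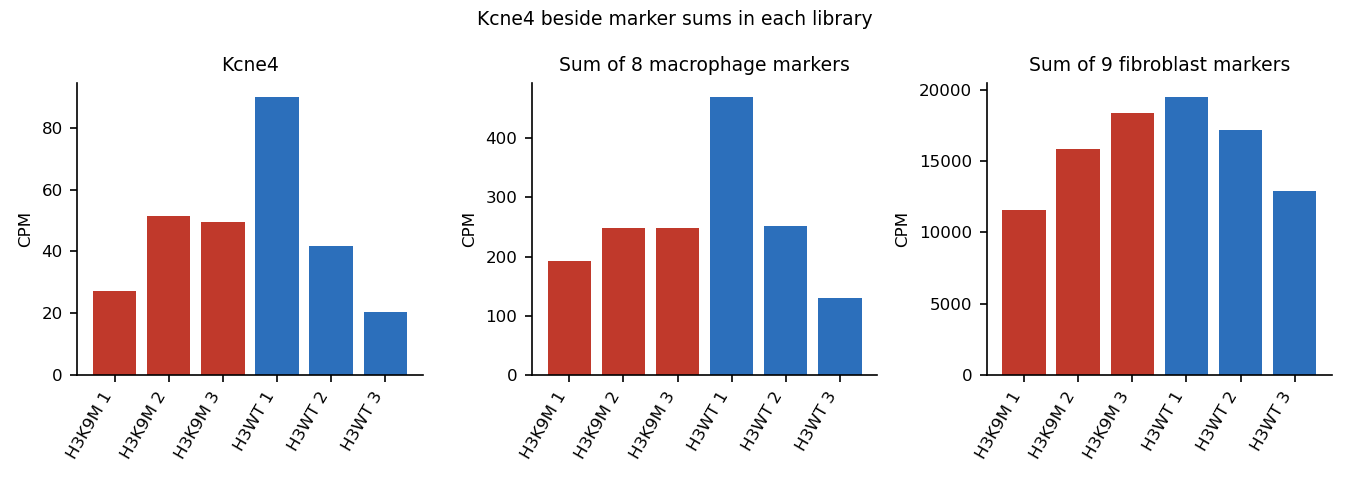
CPM of Kcne4 and the summed CPM of 8 macrophage and 9 fibroblast markers in each H3K9M (red) and H3WT (blue) library. H3WT replicate 1 is highest in all 3 panels, and H3WT replicate 3 is lowest for Kcne4 and for the macrophage markers.

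The pore subunits of voltage-gated channels were the largest class, with 16 members, of which 5 were positive and 11 negative (68.8%, against 50.5% of all genes, median -0.29). None of the 16 passed the adjusted threshold in edgeR or limma-voom, while DESeq2 called Kcna5 and Kcnd1 lower. At an unadjusted p under 0.05, 5 of the 16 were lower (Kcna5, Kcnd1, Kcnq1, Kcnh2 and Kcna4, 31.2%, against 8.61% of all genes) and none higher (against 7.78%). Kcnh2 (chr5:24319589-24351604, minus strand), the pore gene of the rapid delayed rectifier, was at 109, 107 and 117 CPM in H3K9M libraries, against 132, 120 and 133 CPM in H3WT libraries. The groups did not overlap, and the difference was small and did not pass the test (log2 fold change -0.21 ± 0.08, edgeR adjusted p = 0.217). Kcnq1 (chr7:143106362-143427042, plus strand), the pore gene of the slow delayed rectifier, was at 40.2, 31.1 and 31.4 CPM in H3K9M libraries, against 43.3, 39.98 and 50.3 CPM in H3WT libraries. H3K9M replicate 1 lay within the range of H3WT, and the adjusted p was 0.195 (-0.38 ± 0.13). Kcne1 made up 52.1 ± 8.0% of the summed CPM per kb of Kcnq1 and Kcne1 in H3K9M and 45.3 ± 5.9% in H3WT, with groups that overlapped. Antisense transcript Kcnq1ot1, which overlaps 2.96% of the exon length of Kcnq1, was at 15.2, 8.11 and 7.21 CPM in H3K9M libraries and 10.6, 9.57 and 7.32 CPM in H3WT libraries.

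The largest fitted decreases of the class were in genes of low count. Kcnd1, a transient outward channel gene on the X chromosome (chrX:7822289-7838280), was at 0.393, 0.477 and 0.454 CPM (23, 29 and 26 reads) in H3K9M libraries, against 3.06, 1.59 and 0.588 CPM (172, 88 and 40 reads) in H3WT libraries. The 3 H3K9M libraries lay close together, while H3WT spanned a wide range with its lowest library near those of H3K9M (log2 fold change -1.98 ± 0.59, edgeR adjusted p = 0.143). Without that library, H3WT replicate 3, the adjusted p was 0.0398, and without H3WT replicate 1 the log2 fold change was -1.29 and the adjusted p 0.388. Leaving out any of the other 4 libraries gave an adjusted p from 0.274 to 0.310. Kcna5 (chr6:126532551-126535412, minus strand), a gene of an atrial delayed rectifier in human and of a slowly inactivating current in mouse, was at 0.239, 0.675 and 0.646 CPM (14, 41 and 37 reads) in H3K9M libraries, against 2.46, 1.46 and 1.19 CPM (138, 81 and 81 reads) in H3WT libraries. The groups did not overlap (-1.71 ± 0.51, adjusted p = 0.141). Kcna6, its neighbour at a distance of 173 kb on chromosome 6, was at 0.359, 0.642 and 0.890 CPM in H3K9M libraries, against 0.962, 1.04 and 0.999 CPM in H3WT libraries. Its adjusted p was 0.521, and 39.6% of its exon length overlaps the antisense gene Gm26673, which makes its counts uncertain. Kcna6 was chosen after its values were seen.

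Other voltage-gated pore genes, chosen after their values were seen, lay further from the threshold. Kcna4, a transient outward channel gene, was at 5.46 ± 1.04 CPM in H3K9M and 7.78 ± 1.43 CPM in H3WT (SD, n = 3 each, edgeR adjusted p = 0.268). Kcnd2 (1.59 ± 0.81 CPM in H3K9M, 1.19 ± 0.46 CPM in H3WT) and Kcnd3 (0.296 ± 0.168 and 0.281 ± 0.046 CPM), the genes of the fast transient outward current of the adult heart, had adjusted p-values of 0.725 and 0.971. Another 6 genes (Kcna3, Kcna6, Kcna7, Kcnh1, Kcnh7 and Kcnq5) had mean levels under 2 CPM in both groups and adjusted p-values from 0.521 to 0.997. Kcnh7 had 0 reads in H3K9M replicate 3, which allows a level of up to 0.0523 CPM (3 reads).

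Silent subunits form no channel alone and change the gating of delayed rectifier pores they join. Of the 3 measured, all were negative and none passed the test. Kcng2, the most abundant gene of the family per kb, was at 83.8, 80.4 and 91.0 CPM in H3K9M libraries, against 96.2, 81.2 and 97.0 CPM in H3WT libraries. The groups overlapped (log2 fold change -0.10 ± 0.09, edgeR adjusted p = 0.62), and 9.1% of its exon length overlaps another gene model on the other strand, D330025C20Rik. Kcnf1 was at 0.427, 0.148 and 0.227 CPM in H3K9M libraries, against 0.499, 0.649 and 1.04 CPM in H3WT libraries. Its groups did not overlap (-1.45 ± 0.59, adjusted p = 0.27). Kcns1 was at 0.068, 0.510 and 0.105 CPM in H3K9M libraries, against 1.10, 1.44 and 0.147 CPM in H3WT libraries, and its groups overlapped (-1.96 ± 0.97, adjusted p = 0.369). With 1 library left out, its log2 fold change ran from -3.34 (without H3K9M replicate 2) to -1.44 (without H3WT replicate 2), and the adjusted p from 0.165 to 0.664.

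Of 9 inward rectifier genes, 7 were positive, with a median of 0.39, against 49.5% positive among all genes, and none of the 9 passed the adjusted threshold in edgeR or limma-voom. At an unadjusted p under 0.05, 2 were higher (Kcnj15 and Kcnj5, 22.2%, against 7.78% of all genes) and none lower (against 8.61%), and DESeq2 called Kcnj15. Kcnj15 (chr16:95257558-95300260, plus strand), an inward rectifier gene better known from kidney epithelium, was at 29.5, 32.7 and 39.5 CPM in H3K9M libraries, against 27.4, 25.5 and 21.3 CPM in H3WT libraries. All H3K9M libraries lay above all H3WT libraries (log2 fold change 0.46 ± 0.14, edgeR adjusted p = 0.146). Kcnj5, a pore gene of the channel that opens on vagal stimulation, was at 29.4, 25.4 and 36.2 CPM in H3K9M libraries, against 26.7, 20.4 and 20.4 CPM in H3WT libraries. H3K9M replicate 2 lay below H3WT replicate 1 (0.43 ± 0.16, adjusted p = 0.225). Its partner in that channel, Kcnj3, was at 1.59 ± 0.57 CPM in H3K9M and 1.22 ± 0.55 CPM in H3WT (adjusted p = 0.742, chosen after its values were seen). Kcnj5 made up 95.6 ± 1.1% of the summed CPM per kb of this pair in H3K9M and 95.4 ± 2.2% in H3WT. Of the exon length of Kcnj3, 31.1% overlaps the antisense gene Gm26794, so its counts and these shares are uncertain.

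The strong inward rectifiers that hold the resting potential of the myocyte were represented by Kcnj2, Kcnj12, Kcnj4 and Kcnj14. Kcnj12 was at 14.6 ± 1.65 CPM in H3K9M and 13.4 ± 1.58 CPM in H3WT (SD, n = 3 each, edgeR adjusted p = 0.719), and Kcnj2 at 13.0 ± 3.9 and 14.5 ± 2.1 CPM (0.789). Kcnj12 made up 63.0 ± 4.9% of the summed CPM per kb of these 4 genes in H3K9M and 58.7 ± 1.7% in H3WT, against 28.4 ± 8.6% and 31.8 ± 1.4% for Kcnj2. Kcnj4 was at 0.683, 0.444 and 0.454 CPM in H3K9M libraries, against 0.481, 1.10 and 1.70 CPM in H3WT libraries, and its groups overlapped (adjusted p = 0.382). Kcnj14 was at 1.34 ± 0.94 and 0.720 ± 0.388 CPM (0.539), and 30.8% of the 50-base stretches in its exons also occur in Gm5522, so its counts are uncertain. Kcnj2, Kcnj12 and Kcnj14 were chosen after their values were seen.

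ATP-sensitive channels combine the pore of Kcnj11, or of Kcnj8 in vessels, with a sulfonylurea receptor encoded by Abcc8 or Abcc9, and close when ATP is plentiful. Kcnj11 (chr7:46093953-46100764, minus strand) was at 23.5, 19.0 and 23.8 CPM in H3K9M libraries, against 24.2, 19.6 and 21.8 CPM in H3WT libraries. The groups overlapped almost fully (log2 fold change 0.01 ± 0.13, edgeR adjusted p = 0.971). Kcnj8 was at 0.898 ± 0.205 CPM in H3K9M and 0.656 ± 0.499 CPM in H3WT (adjusted p = 0.762, chosen after its values were seen). Of the receptor genes, which are not members of the family, Abcc8 rose in H3K9M cells, with 12.2, 13.2 and 15.1 CPM, against 7.96, 7.46 and 8.51 CPM in H3WT libraries (log2 fold change 0.76 ± 0.14, adjusted p = 0.0362). Abcc9, chosen after its values were seen, was at 133, 133 and 208 CPM in H3K9M libraries, against 104, 87.6 and 111 CPM in H3WT libraries, and did not pass the test (0.65 ± 0.18, adjusted p = 0.11). Of the summed CPM per kb of these 4 genes, Kcnj11 made up 22.7 ± 3.6% in H3K9M and 31.0 ± 1.6% in H3WT, and Abcc9 69.7 ± 4.0% and 62.6 ± 2.2%. The shares of the groups did not overlap for either gene. As parts of the same total they are not separate results, and Kcnj11 itself was at 6.01 ± 0.74 CPM per kb in H3K9M and 5.95 ± 0.63 in H3WT.

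Two-pore channels had 5 members, of which 1 was positive and 4 negative (against 50.5% of all genes, median -0.52). At an unadjusted p under 0.05, 1 was higher (Kcnk3, against 7.78% of all genes) and 2 lower (Kcnk6 and Kcnk2, against 8.61%). Kcnk3 (chr5:30588170-30625271, plus strand), an acid-sensitive background channel gene, was at 11.1, 11.4 and 13.9 CPM in H3K9M libraries, against 7.34, 5.68 and 7.71 CPM in H3WT libraries. The groups did not overlap, and the adjusted p lay just above the threshold (1.75-fold, log2 fold change 0.81 ± 0.17, edgeR adjusted p = 0.0507). Kcnk6 (chr7:29221926-29232515, minus strand), a weakly inwardly rectifying member, was at 3.01, 3.18 and 3.42 CPM in H3K9M libraries, against 7.59, 5.51 and 5.72 CPM in H3WT libraries. The highest H3K9M library lay well below the lowest H3WT library (-0.97 ± 0.20, adjusted p = 0.0502, or 0.0487 with the Y-linked level as a covariate, a setting chosen after seeing the data). Kcnk2, the gene of a channel opened by membrane stretch, was at 8.18, 6.81 and 7.28 CPM in H3K9M libraries, against 11.2, 10.7 and 9.20 CPM in H3WT libraries. Its groups did not overlap either (-0.48 ± 0.15, adjusted p = 0.148), and 12.2% of its exon length overlaps the antisense gene A430027H14Rik. With 1 library left out, the adjusted p of Kcnk3 was between 0.0507 and 0.179 and that of Kcnk6 between 0.0582 and 0.145. DESeq2 called Kcnk3 (adjusted p = 0.000649) and Kcnk6 (0.000709) but not Kcnk2 (0.0584). Kcnk5, an alkaline-activated background channel gene chosen after its values were seen, was at 1.16 ± 0.18 CPM in H3K9M and 1.67 ± 0.31 CPM in H3WT (SD, n = 3 each, edgeR adjusted p = 0.485).

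Channels opened by calcium or sodium inside the cell had 6 pore genes, of which 2 were positive and 4 negative (66.7%, against 50.5% of all genes, median -0.10). None passed the adjusted threshold in edgeR or limma-voom, 1 was lower at an unadjusted p under 0.05 (16.7%, against 8.61% of all genes), and DESeq2 called 1 lower, in both cases Kcnn1. This gene of a small-conductance calcium-activated channel was at 1.23, 1.15 and 0.960 CPM in H3K9M libraries, against 2.07, 2.68 and 2.32 CPM in H3WT libraries. The groups did not overlap (log2 fold change -1.08 ± 0.29, edgeR adjusted p = 0.107). The related Kcnn2 was at 3.79, 3.65 and 4.45 CPM in H3K9M libraries, against 4.94, 2.47 and 5.33 CPM in H3WT libraries (-0.10 ± 0.30, adjusted p = 0.905). Kcnn3 was at 1.25, 1.22 and 1.75 CPM in H3K9M libraries, against 3.03, 2.00 and 1.60 CPM in H3WT libraries (-0.65 ± 0.34, adjusted p = 0.397). Of the summed CPM per kb of these 3 genes, Kcnn1 made up 26.9 ± 4.7% in H3K9M and 40.6 ± 10.9% in H3WT. Kcnt2, a sodium-activated channel gene, was at 2.83, 6.73 and 6.02 CPM in H3K9M libraries, against 5.67, 6.04 and 5.07 CPM in H3WT libraries, with H3K9M replicate 1 lowest of all (adjusted p = 0.902). Kcnn4, chosen after its values were seen, was at 0.948 ± 0.147 CPM in H3K9M and 0.758 ± 0.054 CPM in H3WT (SD, n = 3 each, edgeR adjusted p = 0.74).

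The large-conductance calcium-activated (BK) channel showed an uneven pair of levels. Its pore gene Kcnma1 was at 0, 0.527 and 0.593 CPM (0, 32 and 34 reads) in H3K9M libraries, against 0.143, 0.054 and 0.176 CPM (8, 3 and 12 reads) in H3WT libraries. H3K9M held both the highest libraries and the lowest, where 0 reads allow a level of up to 0.0512 CPM, and the adjusted p was 0.547. Kcnmb1 (chr11:33963013-33973641, plus strand), the beta subunit gene known from smooth muscle, was at 37.2, 29.95 and 26.2 CPM in H3K9M libraries, against 7.89, 18.8 and 17.4 CPM in H3WT libraries. All H3K9M libraries lay above all H3WT libraries, with H3WT replicate 1 far below the rest (2.12-fold, log2 fold change 1.08 ± 0.29, edgeR adjusted p = 0.106). With the Y-linked level as a covariate, a setting chosen after seeing the data, the adjusted p was 0.0305. The summed level of 9 smooth muscle and pericyte markers was 5926, 6260 and 6341 CPM in H3K9M libraries, against 6055, 7944 and 6894 CPM in H3WT libraries. This sum had the order of Kcnmb1 within H3WT and the reverse order within H3K9M. The part of these cells in the level of Kcnmb1 was not tested. Kcnmb4, a beta subunit gene known from brain, was at 0.393, 0.230 and 0.262 CPM in H3K9M libraries, against 0.606, 0.613 and 0.338 CPM in H3WT libraries (-0.81 ± 0.54, edgeR adjusted p = 0.513). Antisense genes overlap 31.5% of the exon length of Kcnmb4, which makes its counts uncertain. Per kb of exon, Kcnmb1 was at 7.42 ± 1.33 CPM in H3K9M and 3.51 ± 1.42 CPM in H3WT, and Kcnma1 at 0.022 ± 0.019 and 0.0073 ± 0.0037 CPM. In all 6 libraries Kcnmb1 made up at least 90.8% of the summed level of the BK genes.

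Genes that work with these channels were read from 4 lists with 90 tested genes, of which 2 rose and 4 fell in H3K9M cells, against 0.935% and 1.05% of all genes. The lists were chosen with earlier results of these data known, so these counts cannot be read as an excess over all genes. Of 14 channel partners outside the family (9 positive, median 0.0069), Abcc8 rose, as given above. Dlg1, a scaffold that clusters channels at the membrane, was at 154, 149 and 178 CPM in H3K9M libraries, against 127, 121 and 127 CPM in H3WT libraries (log2 fold change 0.36 ± 0.08, edgeR adjusted p = 0.0766). Of 24 genes of other potassium transport (13 positive, median 0.014), Slc12a9, of the cation chloride cotransporter family, fell to 5.94, 7.50 and 5.81 CPM in H3K9M libraries, against 12.6, 11.3 and 11.0 CPM in H3WT libraries (-0.86 ± 0.15, adjusted p = 0.0362).

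Of 23 other cation channel genes of the action potential (10 positive, median -0.076), 1 rose and 2 fell. Scn10a, a sodium channel gene, rose to 14.0, 28.7 and 27.5 CPM in H3K9M libraries, against 9.62, 7.60 and 10.8 CPM in H3WT libraries (log2 fold change 1.33 ± 0.26, edgeR adjusted p = 0.0445). The pacemaker channel genes Hcn2 (6.71, 4.92 and 7.08 CPM in H3K9M libraries, against 11.9, 10.2 and 12.6 CPM in H3WT libraries, -0.89 ± 0.18, adjusted p = 0.0443) and Hcn4 (adjusted p = 0.0406) fell. Of 29 regulators of cardiac potassium channel genes (7 positive, 22 negative, median -0.12), 1 fell, the homeobox gene Irx5 (adjusted p = 0.0337), whose product is known in mouse ventricle as a repressor of Kcnd2. Irx3, a homeobox gene of the same cluster, was at 67.5, 87.7 and 101 CPM in H3K9M libraries, against 125, 112 and 121 CPM in H3WT libraries (-0.48 ± 0.13, adjusted p = 0.116). All 6 calls in these lists were lost without H3WT replicate 1 (edgeR adjusted p from 0.0657 to 0.0952), H3WT replicate 2 (0.116 to 0.187) or H3K9M replicate 2 (0.0505 to 0.148). Without H3WT replicate 3, the calls on Abcc8, Slc12a9 and Irx5 held, and those on Scn10a (0.0507), Hcn2 (0.0741) and Hcn4 (0.0573) were lost. Without H3K9M replicate 1, Scn10a (0.01) and Irx5 (0.0337) held and the others were lost (0.0647 to 0.117), and without H3K9M replicate 3, Hcn4 (0.0124) held and the others were lost (0.0534 to 0.14).

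The authors' deposited table of their own DESeq2 comparison listed 43 of the 48 members. Of these, 4 in the authors' deposited table had an adjusted p under 0.05, against 4.1% of all its genes with an adjusted p, namely Kcnab1 (0.000298), Kcnmb1 (0.00666), Kcnk6 (0.00784) and Kcnj15 (0.0319). The log2 fold changes in the authors' deposited table were 0.65 for Kcnab1, 1.02 for Kcnmb1, -1.13 for Kcnk6 and 0.55 for Kcnj15. Its sign was that of the edgeR fit on the raw counts for 37 members and the opposite for 6, among them Kcnj8, Kcnj11, Kcna7, Kcnd3 and Kcne1, none of which passed the threshold in either source. The mean normalised count over all genes was 1018 in the authors' deposited table, whereas the raw table averaged 3917 counts per gene and library, so the 2 sources do not rest on the same totals.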

How the data were processed

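Polyadenylated RNA of 3 H3K9M and 3 H3WT libraries was sequenced after preparation with a Tecan Universal Plus kit, per the labels' protocols. Per the submitters' processing notes, HISAT2, featureCounts and DESeq2 were used with build mm10. The strand setting and tool versions were not given in the sources used here. Raw counts per gene were deposited by the authors (15159 genes, smallest row total 19). Their own comparison, also deposited, holds the mean normalised count as a signal, the log2 fold change with its error, the p-value with its adjusted form and a test score, the last not used here. All per-sample columns were used (0 left out).

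The filter was filterByExpr with 10 counts and a total of 15, which kept 14758 genes, and library sizes were scaled with TMM. The test was edgeR 4.0.16 (R 4.3.3), quasi-likelihood, with the group alone in the model, and p-values were adjusted after Benjamini and Hochberg over every tested gene, at 0.05. The standard error is the fold change over the square root of F, 0.133 in the median gene, and the biological coefficient of variation was 18.8%. Alternatives were DESeq2 1.42.0, limma-voom (limma 3.58.1), RLE factors, other filters, the replicate block, a threshold of 0.10 and leaving out each library. A Y-linked covariate was added after seeing the data. With 3 against 3, no exact permutation test of a single gene can give a p under 0.1. Chi-square per gene between replicates was 26.5 to 117.8, so no library copies another. The steps were tested on simulated data.

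Levels between genes are CPM per kb of the exon union of GENCODE M21, whose GRCm38 is also called mm10. Promoter windows are from RefSeq. Limits that a count of 0 allows (3 reads) cover counting error only. Members, classes and lists were chosen with earlier results of these data known. Named with values are each member past the threshold, per class the 3 of smallest p and the 2 of highest level, and of each list the genes past the threshold and up to 4 others. Some members and list genes that the rule allows are not reported here.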

Additional observations from a re-analysis of the deposited data

How the results depend on the processing

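Counts given as higher, then lower, in H3K9M were 138 and 155 over all genes, 1 and 0 over potassium channel genes and 2 and 4 over partner genes. DESeq2 gave 475 and 544, 4 and 4, and 5 and 10. An adjusted threshold of 0.10 gave 308 and 356, 2 and 1, and 3 and 7. With the Y-linked level as a covariate, a setting chosen after seeing the data, potassium channel genes had 2 and 1 calls (Kcnab1 and Kcnmb1 higher, Kcnk6 lower) and partner genes 1 and 4. Under limma-voom, partner genes had 1 and 4. Leaving out 1 library gave 30 to 149 and 30 to 223 over all genes, 0 to 1 and 0 to 1 over potassium channel genes, and 0 to 1 and 0 to 3 over partner genes. The replicate block gave 31 and 27, 0 and 0, and 0 and 0. Same-numbered libraries did not deviate together (correlations -0.16, 0.03 and -0.07), so the numbers were not taken to pair samples. The titles mark replicate 1 of both groups as M1 and replicate 3 as M5, but replicate 2 as M3 in H3K9M and M2 in H3WT, and do not say what these marks mean. In both groups the title of replicate 2 lacks the word Soft and that of replicate 1 lacks D4. The sources nonetheless give 13 kPa and 4 days for every library. The other filters and RLE factors left each count within 1.5 times.

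Of 331 results for 26 named genes under 13 alternatives, 304 kept direction and side of the threshold, 10 passed it newly, 5 lost it (all for Kcnab1) and 12 turned direction. Kcnj11 was at -0.0078 (log2) with the covariate. With 1 library left out, fold changes ran from -0.62 to 0.47 for Kcne4, -0.11 to 0.14 for Kcne1, -0.058 to 0.11 for Kcnj11, -0.34 to 0.19 for Kcnt2 and -0.37 to 0.10 for Kcnn2. The cause of these shifts was not tested. Members under 5 CPM had a median error of 0.51, against 0.16 for those above, and counting error and spread between libraries were not separated.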

Other observations

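Other rows with related symbols fell outside the family rule. Kcne1l, a single-span subunit gene on the X chromosome, had 4, 37 and 7 reads in H3K9M libraries, against 28, 59 and 80 reads in H3WT libraries (log2 fold change -1.76 ± 0.80, edgeR adjusted p = 0.325), with overlapping groups. Kcns3, a silent subunit gene under the count limit, had 0, 4 and 12 reads in H3K9M libraries, against 5, 17 and 14 in H3WT libraries. Kcnrg, which encodes a regulator and not a channel, had 15, 5 and 12 reads in H3K9M libraries, against 3, 0 and 6 in H3WT libraries, too few to be tested. The authors' deposited table also lists Kcnk4, Kcnip4 and Kcnj6, for which the count table has no row, and none of these 3 passed its threshold.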
